A study of Mus musculus with 12 samples.

Results

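10 genes of transcription factor IIH (TFIIH) and nucleotide excision repair were followed through 12 RNA-seq libraries of mouse embryonic stem cells, pluripotent cells derived from the early embryo. The members were Gtf2h1, Gtf2h2, Gtf2h3, Gtf2h4, Gtf2h5, Ercc2, Ercc3, Ercc5, Xpc and Xpa, picked as named genes with earlier results of these data known, and all 10 were found among the 41079 gene IDs of the tables. The libraries form 4 groups of 3, labelled as biological replicates: wild type, wild type with etoposide, Bod1l knockout, and Bod1l knockout with etoposide. Etoposide is a topoisomerase II poison that leaves breaks in DNA. Both knockout groups carry tamoxifen in their labels and neither wild-type group does, so knockout and tamoxifen cannot be told apart in any comparison of genotypes. The labels give no dose or time of etoposide, no strain, and no count of knockout clones. Bod1l, whose protein protects stalled replication forks, stood at 46.5 to 51.1 TPM in the 6 wild-type libraries and at 11.2 to 12.95 in the 6 knockout libraries.

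Nucleotide excision repair removes bulky lesions, such as those made by ultraviolet light, by cutting the damaged strand on both sides of the lesion and refilling the gap. Lesions are found either anywhere in the genome by Xpc and its partners or on transcribed strands by a stalled RNA polymerase II. Both routes call in TFIIH, which opens the DNA around the lesion, and TFIIH also opens DNA at promoters when RNA polymerase II starts transcription. Xpa then checks the lesion, Ercc5 (also called XPG) cuts on one side of it and the Ercc1-Ercc4 pair on the other.

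Levels are given as TPM, a gene's share of the transcripts of its library after division by gene length, so that genes can be compared. Differences between groups are given on the log2(TPM + 1) scale with their standard errors, and a difference was called where the Benjamini-Hochberg adjusted p of limma over all 14107 genes tested was under 0.05. All 10 members passed the filter of a mean of 1 TPM. In bulk RNA a lower level in every cell and fewer expressing cells cannot be told apart. Depth ranged from 5.23 to 7.76 gigabases of aligned sequence per library. Of 7 stem cell markers the tables name 6, whose summed level ran from 7646 to 7661 TPM in untreated wild type and from 6972 to 7087 in knockout cells without etoposide. With etoposide the sums were 7198 to 7533 TPM for wild type and 6637 to 6948 for the knockout. Etoposide called Pou5f1, Nanog and Zfp42 lower in both genotypes, while Dppa5a, Sox2 and Esrrb did not pass in either. Between untreated genotypes only Dppa5a (3806 ± 20.4 and 3259 ± 15.9 TPM) and Pou5f1 (1511 ± 23.1 and 1400.4 ± 45.6 TPM) were called, both lower in the knockout, while Nanog, Sox2, Zfp42 and Esrrb did not pass. Between treated genotypes Dppa5a and Pou5f1 were again lower and Nanog, Zfp42 and Esrrb were called higher. Lists for feeder fibroblasts, extraembryonic endoderm, trophectoderm, neuroectoderm and mesoderm each summed to at most 14.2 TPM in any library. Col3a1 and Twist2 of feeders, Afp of endoderm and Elf5 of trophectoderm were listed at 0 throughout at least 1 group. The trophectoderm sum was 4.65 to 5.06 TPM in untreated wild type and 6.16 to 7.67 in the untreated knockout. The part of the marker levels in the results was not tested.

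In untreated cells, 3 members were lower in the knockout, namely Xpa and the TFIIH subunits Gtf2h3 and Gtf2h4, at 47.6% to 62.1% of their wild-type means. Another 4 were higher by smaller amounts, namely the TFIIH helicases Ercc2 and Ercc3, the subunit Gtf2h1 and the nuclease Ercc5. The subunits Gtf2h2 and Gtf2h5 and the lesion sensor Xpc did not pass the test. Among all genes tested, 49.6% were called in this comparison, 21.5% lower and 28.1% higher, and the 7 called of 10 were not tested against that share. The libraries of the 2 genotypes did not overlap in the same 7 members, as in 57.4% of all genes. Calls that were also lower by at least 0.5 on the log2 scale made up 7.03% of all genes and 3 of the 10 members. This cutoff was not planned and was applied to lower calls of this comparison alone, so the 2 shares are a description without a test. The median difference of the members was 0.10, against 0.04 over all genes.

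**Figure D1:**
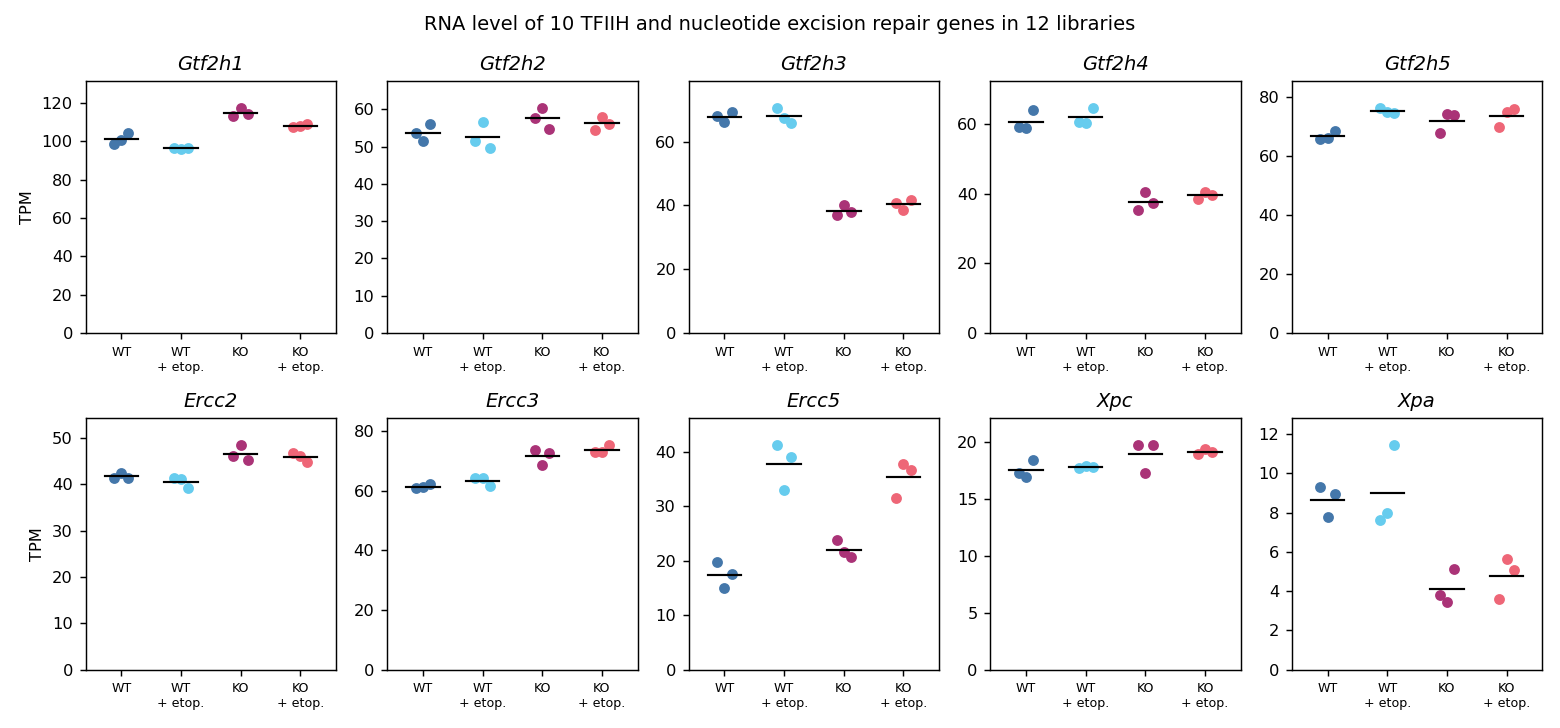
RNA level in TPM (vertical axes, each starting at 0) of the 10 members in the 4 groups, WT for wild type, KO for the Bod1l knockout and etop. for etoposide, with 1 point per library (n = 3 a group) and a line at the group mean. Gtf2h3, Gtf2h4 and Xpa are lower in all 6 knockout libraries than in any wild-type library, and Ercc5 is higher in the treated groups.

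TFIIH is built from a core, which holds Ercc3 (XPB), Ercc2 (XPD) and the Gtf2h1 to Gtf2h5 subunits, and from a kinase module. In untreated wild type the core subunit genes spanned 41.8 ± 0.661 TPM for Ercc2 to 101 ± 3.01 for Gtf2h1 (mean ± SD, n = 3). Between them, Gtf2h3 (67.8 ± 1.68) and Gtf2h5 (66.7 ± 1.52) overlapped in their libraries, as did Ercc3 (61.3 ± 0.672) and Gtf2h4 (60.7 ± 2.96), and Gtf2h2 followed at 53.8 ± 2.24. The 3 repair factors outside TFIIH were lower, with Xpc at 17.6 ± 0.799 and Ercc5 at 17.4 ± 2.46 TPM, which overlapped, and Xpa last at 8.66 ± 0.794. In the untreated knockout this order changed, because Gtf2h3 and Gtf2h4 moved below Ercc2 and became the lowest of the 7 core genes. The highest of their 6 values there, 40.4 TPM, lay under the lowest value of Ercc2, 45.3 TPM.

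Gtf2h3 encodes a core subunit that pairs with Gtf2h2 within TFIIH. It stood at 67.9, 66.1 and 69.5 TPM in untreated wild type and at 36.9, 40.1 and 37.8 in the untreated knockout. With etoposide the values were 70.6, 67.3 and 65.9 in wild type and 40.7, 38.6 and 41.8 in the knockout. The genotypes did not overlap under either condition, and the treated and untreated libraries of each genotype did. The knockout held 56.4% of the wild-type mean without etoposide (−0.81 ± 0.04, limma adjusted p = 3.09e-08) and 59.4% with it (−0.74 ± 0.04, limma adjusted p = 8.54e-08).

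Gtf2h4 encodes the subunit that anchors the Ercc3 helicase in the complex. Its values were 59.1, 58.9 and 64.1 TPM in untreated wild type against 35.4, 40.4 and 37.4 in the untreated knockout. Under etoposide they were 60.7, 60.4 and 64.6 against 38.5, 40.5 and 39.5 TPM. All knockout libraries again lay below all wild-type libraries. The difference was −0.67 ± 0.05 in untreated cells (limma adjusted p = 6.29e-07) and −0.64 ± 0.05 in treated cells (limma adjusted p = 1.32e-06).

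The other 5 core genes did not share this fall. Gtf2h1, a subunit that binds regulators and repair factors such as Xpc, stood at 98.4, 100.6 and 104 TPM in untreated wild type and at 113, 117 and 114 in the untreated knockout (0.18 ± 0.03, limma adjusted p = 0.000145). Ercc3, the translocase that opens promoters, moved from 60.8, 61.2 and 62.1 TPM to 73.5, 68.5 and 72.5 (0.22 ± 0.03, limma adjusted p = 0.000198). Ercc2, the helicase that opens DNA at lesions, moved from 41.4, 42.5 and 41.3 to 46.1, 48.6 and 45.3 TPM (0.16 ± 0.04, limma adjusted p = 0.00419). In these 3 genes every untreated knockout library was above every untreated wild-type library, and the knockout mean was 111.7% to 116.6% of the wild-type mean. The last 1255 bases of Ercc2 overlap Klc3 on the opposite strand, whose mean level was 4.32 TPM in untreated wild type and 5.51 in the untreated knockout. The library kit marks strand, per the labels, but whether the quantification used it is not given in the sources used here.

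Gtf2h2, which encodes the partner and activator of Ercc2, overlapped between genotypes, at 51.5 to 56.0 TPM in untreated wild type and 54.7 to 60.4 in the untreated knockout (0.10 ± 0.05, limma adjusted p = 0.144). Gtf2h5, the small stabilising subunit, stood at 65.8, 65.9 and 68.5 TPM against 67.7, 74.2 and 73.7 (0.10 ± 0.04, limma adjusted p = 0.0534). Gtf2h5 lies close to the threshold, and its call changed with the settings given in the closing section. The 95% interval of the Gtf2h2 difference, −0.02 to 0.21, leaves room for a rise as large as that of Ercc2.

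A ratio taken inside each library does not depend on the scaling between libraries. Gtf2h3 amounted to 106%, 103% and 104.5% of the mean TPM of the other 5 core genes in untreated wild type and to 51.4%, 54.3% and 52.5% in the untreated knockout. For Gtf2h4 the percentages were 92.3, 91.5 and 96.5 against 49.4, 54.7 and 51.8. Both genes thus stood near the average core gene in wild type and near 50% of it in the knockout (52.7 ± 1.46 and 52.0 ± 2.66 percent). Part of this contrast lies in the other 5 genes, whose untreated knockout means were 107.2% to 116.6% of wild type. Gtf2h3 and Gtf2h4 themselves stood at 56.4% and 62.1% of their wild-type means. With etoposide the means were 103.6 ± 3.06% in wild type and 56.4 ± 2.47% in the knockout for Gtf2h3, and 94.5 ± 5.28% and 55.3 ± 0.80% for Gtf2h4. This ratio was chosen after the values were seen and is given without a test.

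**Figure D2:**
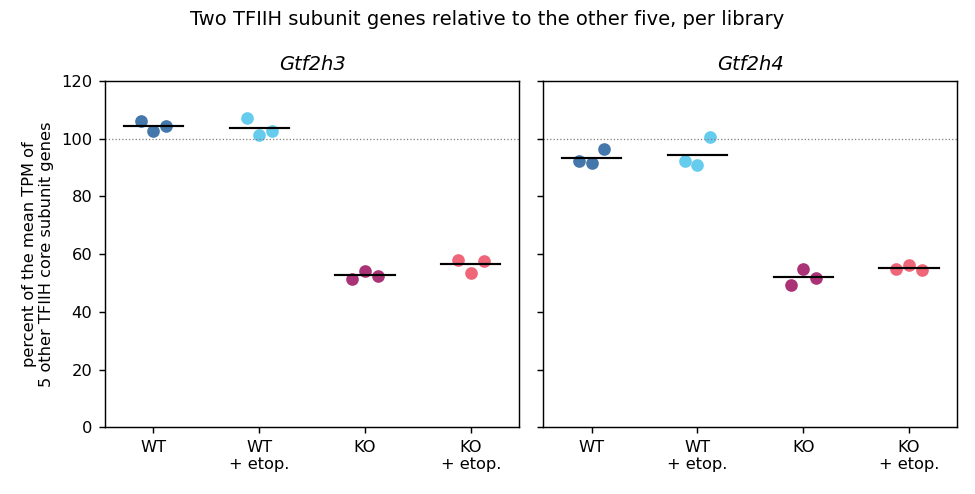
Gtf2h3 (left) and Gtf2h4 (right) as a percentage of the mean TPM of Gtf2h1, Gtf2h2, Gtf2h5, Ercc2 and Ercc3 in the same library, with 1 point per library and a line at the group mean. Wild-type libraries (WT) lie between 90.8% and 107%, and knockout libraries (KO) between 49.4% and 57.9%, with or without etoposide (etop.).

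Of the 3 repair factors outside TFIIH, Xpa differed most between genotypes. Xpa, the scaffold that verifies the lesion, stood at 9.29, 7.77 and 8.92 TPM in untreated wild type and at 3.81, 3.45 and 5.12 in the untreated knockout. Under etoposide it stood at 7.63, 7.96 and 11.5 TPM in wild type and at 3.62, 5.62 and 5.07 in the knockout. The genotypes did not overlap, although Xpa had the widest spread between replicates of all members, with a coefficient of variation of up to 23.5% of the mean, and the shallowest coverage, 3.73 to 12.6 reads per base. The difference was −0.92 ± 0.17 without etoposide (limma adjusted p = 0.000754) and −0.79 ± 0.17 with it (limma adjusted p = 0.00262).

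Xpc, which finds distorted DNA for global repair, gave 17.3, 16.9 and 18.5 TPM in untreated wild type and 19.8, 17.3 and 19.7 in the untreated knockout. The groups overlapped (0.10 ± 0.05, limma adjusted p = 0.140). In treated cells the knockout libraries, 18.96 to 19.4 TPM, were all above those of wild type, 17.7 to 17.9 TPM, and the test was not passed (0.10 ± 0.05, limma adjusted p = 0.154). Xpc was therefore not called in any comparison.

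Ercc5, the nuclease that cuts 3′ of the lesion, had the largest etoposide estimate of the 10 members in both genotypes. It stood at 19.8, 14.9 and 17.6 TPM in untreated wild type and at 41.3, 33.0 and 38.9 after treatment. In the knockout it went from 23.8, 21.5 and 20.6 TPM to 31.5, 37.7 and 36.6. Treated and untreated libraries did not overlap in either genotype. The treated mean was 216.5% of the untreated mean in wild type (1.07 ± 0.11, limma adjusted p = 8.01e-06) and 160.5% in the knockout (0.66 ± 0.11, limma adjusted p = 0.00070). The 2 changes differed by −0.42 ± 0.15, which did not pass the test over all genes (limma adjusted p = 0.288, 95% interval −0.75 to −0.09 before adjustment).

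Without etoposide, Ercc5 was higher in the knockout by 0.32 ± 0.11 (limma adjusted p = 0.0242). This call rested on single libraries, as it was not kept without replicate 2 of untreated wild type (0.22, limma adjusted p = 0.105) or without replicate 1 of the untreated knockout (0.27, limma adjusted p = 0.0888). It also ended when genes of low level were kept in the fit (adjusted p = 0.0650), and over all alternatives its limma adjusted p ran from 0.00905 to 0.105. In treated cells the genotypes overlapped in Ercc5 (−0.09 ± 0.11, limma adjusted p = 0.510).

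**Figure D3:**
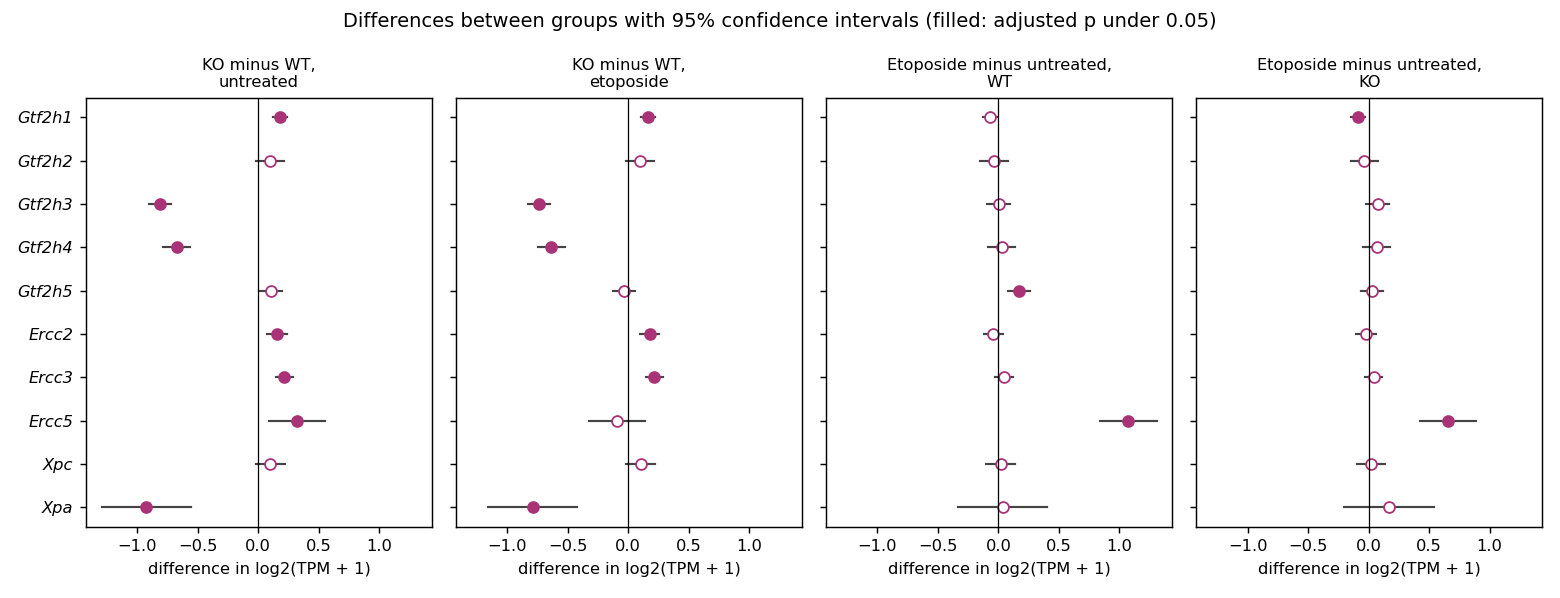
Differences in log2(TPM + 1) (horizontal axes) of the 10 members in the 4 comparisons between groups, with 95% confidence intervals from limma and filled points where the adjusted p was under 0.05. The 2 panels comparing genotypes show Gtf2h3, Gtf2h4 and Xpa at −0.64 to −0.92, and in the etoposide panels Ercc5 stands at 1.07 and 0.66.

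With etoposide present, the genotype comparison called 6 members, the same 3 lower genes and Gtf2h1, Ercc2 and Ercc3 as higher, where 44.1% of all genes were called, 22.5% higher and 21.7% lower. Gtf2h1 was higher by 0.17 ± 0.03, Ercc2 by 0.18 ± 0.04 and Ercc3 by 0.22 ± 0.03 (limma adjusted p = 0.00039, 0.0023 and 0.000258). Groups did not overlap in these 6 members and in Xpc, against 54.3% of all genes. The treated and untreated comparisons of genotypes use separate libraries. Every one of the 6 genes had the same direction in both, which describes genes already called in both and is not a second test.

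Etoposide called 2 of the 10 members in wild type, both higher, where 34.3% of all genes were called, 20.8% higher and 13.5% lower. In the knockout it called 1 higher and 1 lower, where 25.0% of all genes were called, 14.5% higher and 10.5% lower. Treated and untreated libraries did not overlap in 3 members in wild type and 2 in the knockout, against 46.6% and 39.5% of all genes. Beside Ercc5, Gtf2h5 rose in wild type from a mean of 66.7 ± 1.52 to 75.1 ± 0.911 TPM (0.17 ± 0.04, limma adjusted p = 0.0072), with no overlap. In the knockout Gtf2h5 stood at 71.8 ± 3.59 and 73.4 ± 3.28 TPM (0.03 ± 0.04, limma adjusted p = 0.642). Gtf2h1 fell slightly in the knockout, from 113, 117 and 114 to 107, 108 and 109 TPM (−0.09 ± 0.03, limma adjusted p = 0.0333), a call that was lost without any 1 of 5 of the 6 knockout libraries, the exception being replicate 1 of the untreated knockout (limma adjusted p between 0.0135 and 0.120 over all alternatives). In wild type Gtf2h1 went from 101 ± 3.01 to 96.4 ± 0.464 TPM (−0.07 ± 0.03, limma adjusted p = 0.0676), which passed with median-of-ratios scaling (−0.12, limma adjusted p = 0.00453), with FPKM (0.0408) and without replicate 1 of untreated wild type (0.0385).

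No member passed the test of a difference in etoposide response between genotypes, for which limma called 1.23% of all genes. At an unadjusted p under 0.05 there were 2, Gtf2h5 (−0.14 ± 0.06) and Ercc5. For the 3 genes lower in the knockout the estimates of this difference were 0.07 ± 0.06 for Gtf2h3, 0.04 ± 0.07 for Gtf2h4 and 0.13 ± 0.24 for Xpa. The interval for Xpa, −0.39 to 0.66, is wide, and that for Gtf2h3 runs from −0.06 to 0.20.

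The lower genes lie on separate chromosomes. In the GRCm39 coordinates of the tables, Gtf2h3 lies on chromosome 5 from 124717211 to 124735743 on the plus strand, Gtf2h4 on chromosome 17 from 35978624 to 35984607 on the minus strand, and Xpa on chromosome 4 from 46175222 to 46196317 on the minus strand. Ercc5 lies on chromosome 1 from 44184084 to 44220399 on the plus strand. Their promoters are shown because 3 of these genes were the lower ones in the knockout and Ercc5 was the one raised by etoposide in both genotypes. The sequences are from RefSeq on GRCm38.p6, an older build than that of the tables, and run 5′ to 3′ on the gene's own strand from 250 bases before the annotated start to 50 after it. Capitals mark matches, on either strand, to the motifs described after them.
Gtf2h3, chr5:124578898-124579197, plus strand: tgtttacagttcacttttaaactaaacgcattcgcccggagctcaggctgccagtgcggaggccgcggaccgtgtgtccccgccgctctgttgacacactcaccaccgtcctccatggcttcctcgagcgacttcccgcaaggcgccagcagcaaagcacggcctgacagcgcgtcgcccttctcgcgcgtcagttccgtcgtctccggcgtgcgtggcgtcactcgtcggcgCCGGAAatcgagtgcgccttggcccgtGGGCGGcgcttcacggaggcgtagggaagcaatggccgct
Gtf2h4, chr17:35673694-35673993, minus strand: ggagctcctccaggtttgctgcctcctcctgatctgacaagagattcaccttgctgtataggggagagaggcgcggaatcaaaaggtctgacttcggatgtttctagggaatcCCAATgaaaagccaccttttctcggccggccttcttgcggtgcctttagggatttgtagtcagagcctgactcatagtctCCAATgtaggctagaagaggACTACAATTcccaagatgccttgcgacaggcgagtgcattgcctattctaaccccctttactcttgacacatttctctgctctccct
Xpa, chr4:46196262-46196561, minus strand: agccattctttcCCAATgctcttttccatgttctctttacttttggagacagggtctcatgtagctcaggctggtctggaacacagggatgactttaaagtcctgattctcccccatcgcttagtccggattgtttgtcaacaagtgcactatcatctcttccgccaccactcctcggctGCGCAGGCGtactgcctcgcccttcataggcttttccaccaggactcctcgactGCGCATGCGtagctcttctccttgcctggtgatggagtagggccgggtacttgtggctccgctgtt
Ercc5, chr1:44147494-44147793, plus strand: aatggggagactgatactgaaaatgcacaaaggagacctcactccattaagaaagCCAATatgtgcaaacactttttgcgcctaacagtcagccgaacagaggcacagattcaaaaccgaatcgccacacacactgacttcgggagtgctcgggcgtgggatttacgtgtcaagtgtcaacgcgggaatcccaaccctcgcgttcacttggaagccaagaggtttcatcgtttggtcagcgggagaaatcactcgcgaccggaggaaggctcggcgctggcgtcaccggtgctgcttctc

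The motifs searched were the GC box (GGGCGG), the CCAAT box (CCAAT), the TATA box (TATAAA), the core of ETS factor sites (CCGGAA), an NRF1-type site (GCGCANGCG), the E-box (CACGTG), the cAMP response element (TGACGTCA), a ZNF143-type core (ACTACAATT) and the p53 decamer, and no 2 of the matches shown overlap. The Gtf2h3 window held 1 ETS core and 1 GC box, which occur in 14.9% and 35.7% of the 32851 promoters of the same length. The Gtf2h4 window held 2 CCAAT boxes (37.4% of promoters hold at least 1) and 1 ZNF143-type match, found in 0.39% of promoters. The Xpa window held 2 NRF1-type matches (6.25% of promoters) and 1 CCAAT box. The Ercc5 window held 1 CCAAT box, and the letters of the p53 decamer, present in 8.36% of promoters, were not in any of the 4 windows. The lower genes thus had no searched motif in common to all 3, and a match of letters does not show a bound site. A missing match does not show that a gene lacks a site, because only exact letters within these 300 bases were searched. Members that were not lower held some of the same motifs. The windows of Gtf2h1 and Gtf2h2 held the GC box and the ETS core, and that of Ercc2 held NRF1-type and CCAAT matches. Base composition differed too, with 65.3% G or C for Gtf2h3, 50.7% for Gtf2h4 and 53.3% for both Xpa and Ercc5, against a median of 52.7% over all promoters. RefSeq promoters were matched for 8 of the 10 members.

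Gtf2h3 shares its promoter region with Eif2b1, a gene for a subunit of the translation factor that recharges eIF2. The 2 genes point away from each other with starts 17 bases apart, and their 300-base promoter windows share 116 bases. Eif2b1 did not follow Gtf2h3, with 105.3, 105.7 and 109 TPM in untreated wild type and 106, 109 and 107 in the untreated knockout (0.01 ± 0.03, limma adjusted p = 0.824). In treated cells it stood at 107 ± 1.65 and 108 ± 2.58 TPM (0.01 ± 0.03, limma adjusted p = 0.705). Gtf2h3 amounted to 64.5%, 62.6% and 63.8% of Eif2b1 in the untreated wild-type libraries and to 34.8%, 36.9% and 35.3% in those of the untreated knockout.

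Another 3 members start back to back with a neighbour. Gtf2h1 starts 17 bases from Hps5, Gtf2h5 39 bases from Serac1, and Xpc 147 bases from Lsm3. Hps5 (11.5 ± 0.417 TPM in untreated wild type, 11.9 ± 1.01 in the untreated knockout) and Lsm3 (305 ± 11.5 and 302 ± 11.2) did not pass the genotype test (limma adjusted p = 0.636 and 0.732). Serac1 was higher in the untreated knockout (0.21 ± 0.06, limma adjusted p = 0.00835) and rose with etoposide in wild type (0.19 ± 0.06, limma adjusted p = 0.0174), as Gtf2h5 did, but this etoposide call ended with quantile normalization (0.08, adjusted p = 0.256) and without replicate 2 of untreated wild type (0.17, adjusted p = 0.0677). Xpc also has Tmem43 on the opposite strand, 841 bases past its end. Tmem43 was higher in the untreated knockout (0.87, limma adjusted p = 5.69e-08) and rose with etoposide in wild type (0.87, limma adjusted p = 5.18e-08), while Xpc was not called. Its etoposide change was smaller in the knockout (−0.40, limma adjusted p = 0.0162), a call lost in 1 of 20 alternatives.

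Gtf2h4 and Ercc5 have close neighbours on the same strand. Vars2, which encodes mitochondrial valyl-tRNA synthetase and starts 92 bases past the end of Gtf2h4, was lower in knockout cells under etoposide (−0.34 ± 0.06, limma adjusted p = 0.00122). In untreated cells its difference was −0.18 ± 0.06 (limma adjusted p = 0.0374), a call lost without replicate 2 or 3 of wild type or replicate 1 or 3 of the knockout (−0.12 to −0.18, limma adjusted p = 0.0729 to 0.160). Bivm ends 152 bases before Ercc5. Bivm fell from 18.1 ± 0.385 to 11.4 ± 0.485 TPM in the untreated knockout (−0.62 ± 0.06, limma adjusted p = 2.65e-06) and was lower by 0.71 ± 0.06 under etoposide (limma adjusted p = 1.24e-06), where Ercc5 was not called. Etoposide gave no call for Bivm in wild type (0.02 ± 0.06, limma adjusted p = 0.853). Relative to Bivm, Ercc5 stood at 96.3 ± 13.9% in wild type and 193 ± 22.9% in knockout cells without etoposide, and at 206.7 ± 31.4% and 324 ± 14.7% with it. The tables give 1 value per gene, so that transcripts running through both genes were not examined.

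**Figure D4:**
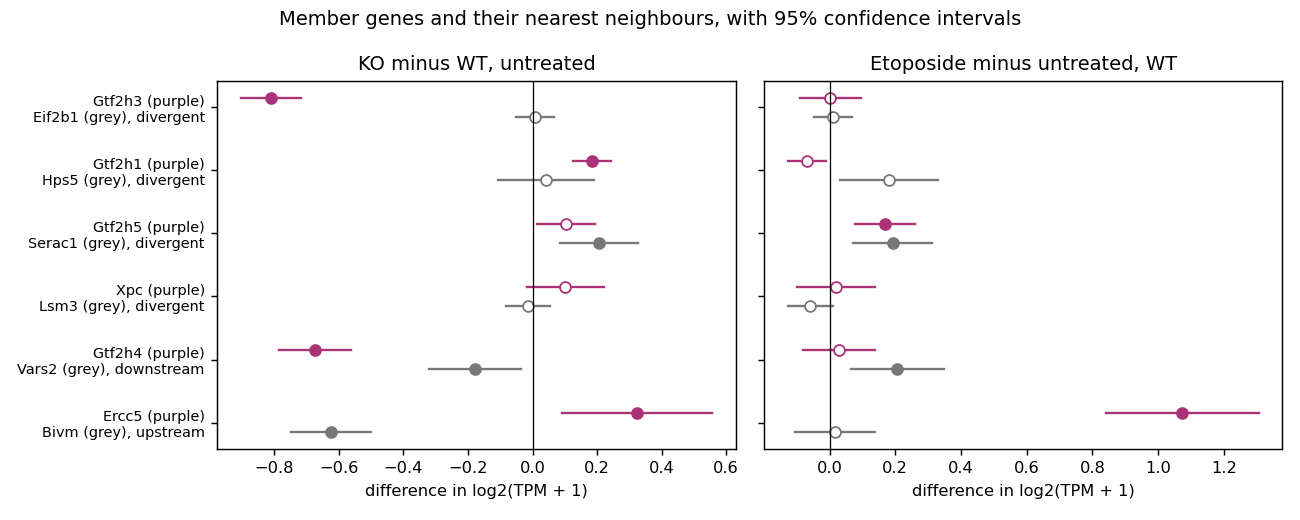
Differences in log2(TPM + 1) (horizontal axes) of 6 members (purple) and their neighbours (grey), with 95% confidence intervals, for the untreated knockout against wild type (left) and for etoposide in wild type (right), filled where the adjusted p was under 0.05. In the left panel Gtf2h3 stands at −0.81 beside Eif2b1 at 0.01, and in the right panel Ercc5 stands at 1.07 beside Bivm at 0.02.

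Genes of the rest of the pathway were also called in both directions. Among all genes, 21.5% were called lower and 28.1% higher in the untreated knockout, and the counts below were not tested against these shares. The kinase module of TFIIH, which phosphorylates RNA polymerase II, had 1 of 3 genes lower in the untreated knockout. That gene, Ccnh, stood at 40.8 ± 0.407 TPM in wild type and 36.2 ± 4.18 in the knockout (−0.18 ± 0.06, limma adjusted p = 0.0358), a call lost without any 1 of 5 of the 6 untreated libraries, replicate 1 of the knockout being the exception (limma adjusted p = 0.00266 to 0.125 over all alternatives). With etoposide Ccnh was lower by 0.23 ± 0.06 on the log2 scale (limma adjusted p = 0.0106). Cdk7, the kinase itself (0.06 ± 0.04), and its assembly factor Mnat1 (−0.03 ± 0.05) did not pass.

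Of 4 other damage recognition genes, 1 was lower and 1 higher in the untreated knockout, against 21.5% and 28.1% of all genes. Cetn2, a centrin that partners Xpc, fell from 51.9 ± 0.140 to 39.3 ± 1.17 TPM (−0.39 ± 0.04, limma adjusted p = 1.05e-05). Rad23b, another partner of Xpc, at 277 ± 3.59 TPM in untreated wild type, stood at 266 ± 1.70 in the untreated knockout (−0.06 ± 0.02, limma adjusted p = 0.0508), and passed with FPKM (0.0106) and with median-of-ratios scaling (0.00842). Ddb1, part of the ultraviolet damage sensor, was higher by 0.12 ± 0.02 (limma adjusted p = 0.000581). Etoposide in wild type called 2 of the 4 higher and 1 lower, against 20.8% and 13.5% of all genes. Rad23b fell by 0.21 ± 0.02 on the log2 scale (limma adjusted p = 1.09e-05), and it also fell in the knockout (−0.13 ± 0.02, limma adjusted p = 0.00109). Ddb1 rose by 0.08 ± 0.02 (limma adjusted p = 0.0088), a call that ended with median-of-ratios scaling (0.03, adjusted p = 0.286). Ddb2, the partner of Ddb1, rose from 13.6 ± 0.357 to 16.8 ± 0.415 TPM (0.28 ± 0.07, limma adjusted p = 0.00701), a call that ended with quantile normalization (0.17, adjusted p = 0.0775). In the knockout the etoposide change of Ddb2 did not pass (0.13 ± 0.07, limma adjusted p = 0.196). Between treated genotypes Ddb2 was lower in the knockout (−0.21 ± 0.07, limma adjusted p = 0.0262), a call lost in 6 of 21 alternatives.

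Transcription-coupled repair had 1 of 5 genes higher and 1 lower in the untreated knockout, against 28.1% and 21.5% of all genes. Ercc6 (CSB), the remodeller that binds stalled polymerase, was higher by 0.30 ± 0.05 (limma adjusted p = 0.000481). Uvssa, which brings TFIIH to the stalled polymerase, fell from 3.77 ± 0.0758 to 2.62 ± 0.258 TPM (−0.40 ± 0.08, limma adjusted p = 0.00166) and was lower by 0.68 ± 0.08 under etoposide (limma adjusted p = 3.95e-05). Ercc8, Elof1 and Xab2 did not pass, with estimates of at most 0.06 in size. Etoposide in wild type called Ercc6 (0.15 ± 0.05, limma adjusted p = 0.045) and Uvssa (0.25 ± 0.08, limma adjusted p = 0.0353) higher, as it did 20.8% of all genes. These 2 calls were lost in 15 of 21 and 8 of 20 alternatives.

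Both genes of the nuclease that cuts 5′ of the lesion were higher in the untreated knockout, as were 28.1% of all genes. Ercc4 (XPF) stood at 11.2, 10.6 and 11.8 TPM in wild type and at 15.4, 14.0 and 15.6 in the knockout (0.39 ± 0.07, limma adjusted p = 0.00050). Its partner Ercc1 stood at 41.8 ± 0.0793 and 46.0 ± 2.11 TPM (0.13 ± 0.05, limma adjusted p = 0.0382), a call that ended with median-of-ratios scaling (0.10, adjusted p = 0.127) and without any 1 of 5 of the 6 untreated libraries, replicate 1 of the knockout being the exception. With etoposide both were higher too, Ercc4 by 0.32 ± 0.07 and Ercc1 by 0.23 ± 0.05 (limma adjusted p = 0.00237 and 0.00236).

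The 20 gap filling genes, shared with DNA replication, had 8 lower and 1 higher in the untreated knockout, where 21.5% of all genes were lower and 28.1% higher, with a median of −0.05 against 0.04 over all genes. Pold4, a small subunit of DNA polymerase delta, showed the lowest value of this list, falling from 7.96 ± 0.572 to 3.55 ± 0.392 TPM (−0.98 ± 0.09, limma adjusted p = 2.78e-06). Rpa3, the small subunit of the single-strand binding protein RPA, fell from 120 ± 3.19 to 89.7 ± 4.30 TPM (−0.41 ± 0.05, limma adjusted p = 2.95e-05). Rfc2, Rfc4 and Rfc5 of the clamp loader were lower by 0.29 ± 0.03, 0.40 ± 0.04 and 0.17 ± 0.03, in order. Rpa2, a further RPA subunit, was at −0.11 ± 0.03 (limma adjusted p = 0.00579). The other lower calls were fragile, as that of Pcna, the sliding clamp (−0.06 ± 0.02, limma adjusted p = 0.024), was lost in 6 of 21 alternatives and that of Rfc1 (−0.09 ± 0.03, limma adjusted p = 0.0401) in 7. Xrcc1, the ligase scaffold, was the higher gene (0.37 ± 0.03, limma adjusted p = 1.46e-06) and rose with etoposide in wild type (0.57 ± 0.03, limma adjusted p = 3.40e-08). Between treated genotypes 6 of the 20 were lower in the knockout and 2 higher, against 21.7% and 22.5% of all genes. Etoposide in wild type called 4 of the 20 higher, Xrcc1, Pold4, Rfc2 and Pole, and 7 lower. Among all genes it called 20.8% higher and 13.5% lower, and the counts were not tested against these shares. The 7 lower genes of the list were Pcna (−0.15 ± 0.02, limma adjusted p = 8.77e-05), Lig1 (−0.12 ± 0.02), Lig3 (−0.14 ± 0.03), Pole4 (−0.10 ± 0.02), Rpa1 (−0.11 ± 0.03), Pold2 (−0.09 ± 0.03) and Pold3 (−0.13 ± 0.04). In wild type the calls of Rpa1, Pold2, Pold3, Pold4 and Pole were each lost in 3 to 11 of 21 alternatives. In the knockout etoposide called 2 of the 20 higher and 5 lower, against 14.5% and 10.5% of all genes. Pold2 (−0.13 ± 0.03, limma adjusted p = 0.0106), Pold3 (−0.20 ± 0.04, limma adjusted p = 0.00368) and Pold4 (0.39 ± 0.09, limma adjusted p = 0.00633) kept these calls in all 21 alternatives. Rpa1 and Pole did not pass there.

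Because TFIIH is also a transcription factor, the other general factors of RNA polymerase II were set beside it. Of 8 genes, 2 were lower and 1 higher in the untreated knockout, against 21.5% and 28.1% of all genes. Gtf2e1, a subunit of TFIIE, the factor that recruits TFIIH to promoters, fell from 69.3 ± 2.55 to 38.4 ± 1.28 TPM (−0.84 ± 0.04, limma adjusted p = 2.10e-08), close to the size of the change in Gtf2h3. Its partner Gtf2e2 stood at 111 ± 9.56 and 101 ± 3.65 TPM (−0.14 ± 0.07, limma adjusted p = 0.125). Gtf2b was lower by 0.18 ± 0.05 (limma adjusted p = 0.0154) and Gtf2f1 higher by 0.16 ± 0.03 (limma adjusted p = 0.000542), and the Gtf2b call was lost without replicate 1 of either untreated group (limma adjusted p = 0.0601 and 0.0634). Between treated genotypes 3 of the 8 were lower in the knockout and 1 higher, against 21.7% and 22.5% of all genes. Gtf2e2 was then among the lower genes (−0.22 ± 0.07, limma adjusted p = 0.0246), a call lost in 4 of 21 alternatives. Etoposide in wild type called 2 of the 8 higher, against 20.8% of all genes. These were Gtf2e1 (0.21 ± 0.04, limma adjusted p = 0.00219) and Gtf2f1 (0.11 ± 0.03, limma adjusted p = 0.0129). The Gtf2f1 call was lost without replicate 2 of treated wild type (0.09, limma adjusted p = 0.0559) and with median-of-ratios scaling (0.06, adjusted p = 0.147).

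**Figure D5:**
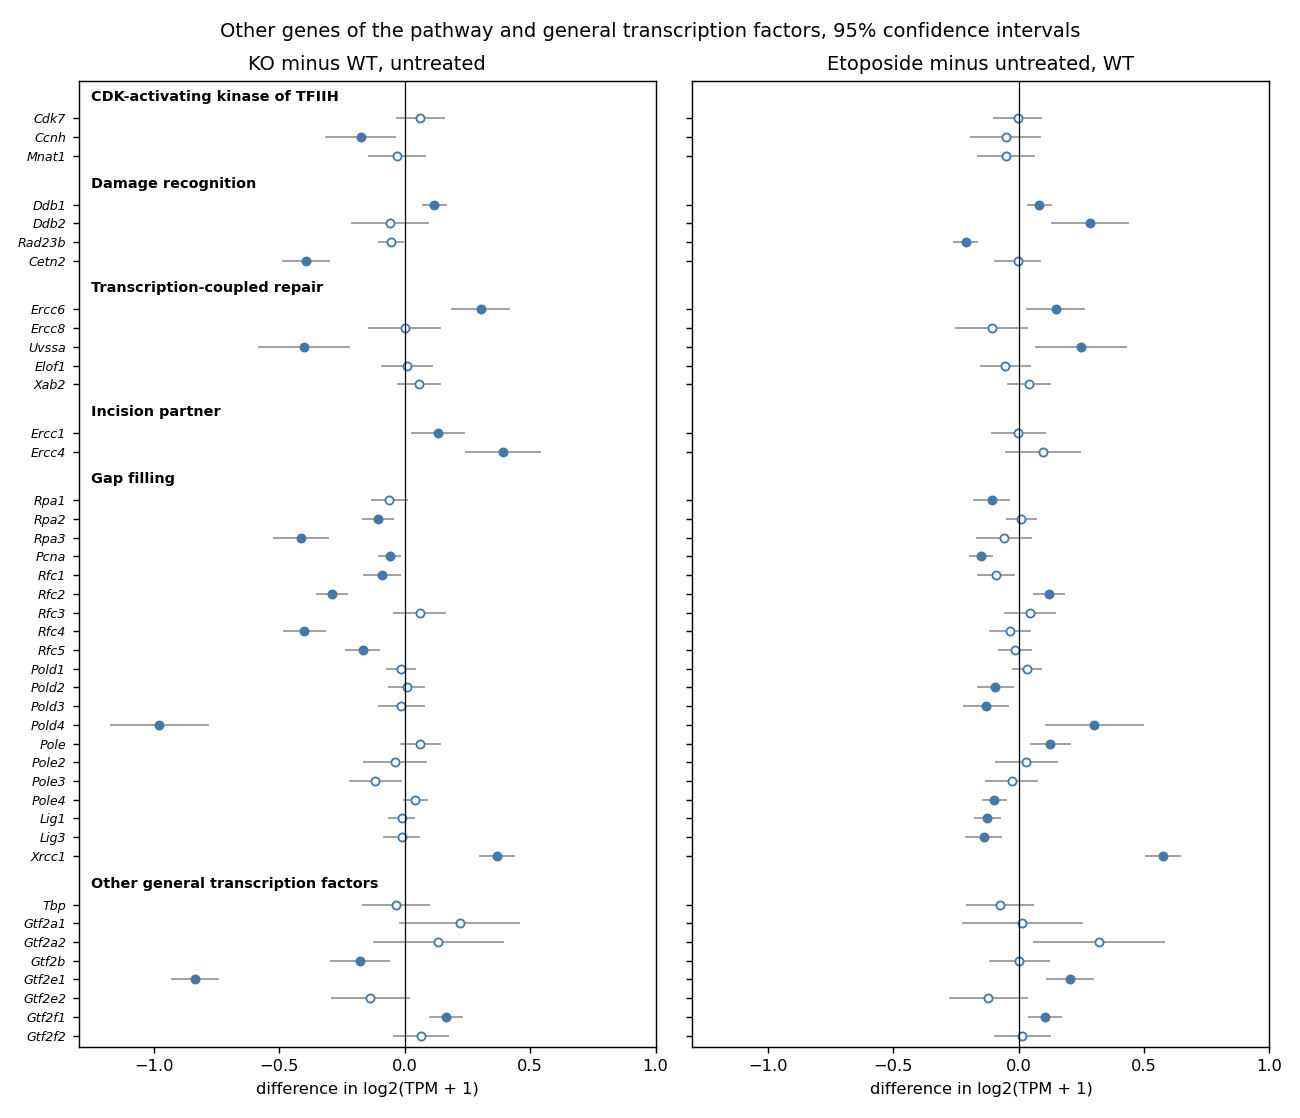
Differences in log2(TPM + 1) (horizontal axes) with 95% confidence intervals for the other genes of nucleotide excision repair and for general transcription factors, in the untreated knockout against wild type (left) and for etoposide in wild type (right), filled where the adjusted p was under 0.05. Pold4 at −0.98 and Gtf2e1 at −0.84 stand lowest on the left, and Xrcc1 at 0.57 stands highest on the right.

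Genes elsewhere in the genome followed the members closely over the 12 libraries. The gene most like Gtf2h3 was Chmp6 (Pearson r = 0.997 of log2(TPM + 1)), followed by Poli (0.995), a translesion DNA polymerase. For Gtf2h4 the most alike were Trappc2b (0.995) and Castor1 (0.993), for Xpa Myom2 (0.971) and Chrac1 (0.97), and for Ercc5 Car12 (0.979) and Klhl8 (0.978). These are descriptions over libraries that share 4 groups, picked as the highest of all genes tested. Gtf2h2 and Xpc, which were called in no comparison, had no gene above 0.901 and 0.917.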

How the data were processed

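Poly(A) RNA of 12 mouse embryonic stem cell libraries was depleted of ribosomal RNA and sequenced after a strand-specific preparation, per the labels' protocols. The submitters' processing notes name Trim Galore 0.6.6, cutadapt 3.4, HISAT2 2.2.1, StringTie 2.2.1 and the build GRCm39. The 3 quantities used here were deposited per gene, per the file headers. TPM, which the authors scaled by gene length and to the same sum in each library, was the measure analysed. The deposited FPKM is scaled by length and depth and served as an alternative. The coverage column deposited with them is the average number of reads over a base, and its ratio to FPKM, shared by 28.4% to 28.9% of genes above 1 FPKM, gave the aligned bases. None of these is a count, and no count test was run.

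Rows with the same gene ID were added up. Genes with a mean of at least 1 TPM, 14107 in all, entered a single limma model of log2(TPM + 1) with a mean for each of 4 groups and a spread that followed abundance (residual degrees of freedom 8, prior 3.91). Benjamini-Hochberg adjustment ran over all genes of each comparison. As separate cultures are not described, p values refer to the spread between these libraries. The code was tested on simulated data.

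The members and gene lists were chosen with earlier results of these data known. Text names follow 1 rule: every member, Bod1l, list genes that passed or stand in lists of at most 5, and the genes best correlated with a member. The damage recognition list was shortened by 1 gene, which is not reported here. Neighbouring genes were added with their values known, and the ZNF143-type motif was shortened to its core after its match had been seen. Alternatives covered the pseudocount, the filter, FPKM, median-of-ratios and quantile scaling, a replicate block, separate fits, a robust spread and the removal of each library. Software was Python 3.11.15, numpy 2.4.6, pandas 2.3.3, matplotlib 3.10.9, R 4.3.3 and limma 3.58.1.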

Additional observations from a re-analysis of the deposited data

How the results depend on the processing

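Of the 17 member results called over the 5 comparisons, 15 kept their call and direction under all 21 alternatives, and those of Ercc5 in the untreated genotype comparison and of Gtf2h1 for etoposide in the knockout did not. No call reversed. The members called for etoposide in the knockout were 2, and 1 in a fit on the compared groups alone. Without single libraries they were 1 to 2. Genes called for the difference in etoposide response were 174 in all, against 104 without the filter on low values, 102 with quantile normalization and 93 to 131 without single libraries. Of the 33 member results not called, 5 passed under some alternative. These were Gtf2h5 (adjusted p = 0.0111 to 0.191 over all alternatives) and Xpc (0.0197 to 0.362) between untreated genotypes, Gtf2h2 (0.0335 to 0.443) and Xpc (0.0274 to 0.281) between treated genotypes, and Gtf2h1 for etoposide in wild type (0.00453 to 0.241). Same-numbered replicates did not deviate together (r = −0.0449 to 0.0453 across genes), so the numbers were not taken as pairs. A replicate block called 8 members in place of 7 between untreated genotypes, adding Gtf2h5 (adjusted p = 0.0419), and changed no other member's call. Precision was limited at low levels, the median standard error between untreated genotypes being 0.14 for genes of mean TPM 1 to 5 and 0.07 for 5 to 50. Uvssa, in the first range, had a standard error of 0.08 in that comparison. Xpa, with a mean of 6.64 TPM at the low end of the second range, had 0.17.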
